A study of Mus musculus with 4 samples.

Results

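The regions described here are 6742 of the 145453 distal regions that the authors deposited for mouse mammary epithelium. Each was 1000 bases wide and more open in mature luminal nuclei of the adult gland than in the groups it was compared with. They were chosen from single-nucleus ATAC-seq, in which the transposase Tn5 cuts open chromatin and barcodes mark the nucleus of origin. Reads of the deposited nuclei were summed by the authors' class numbers into 5 groups and expressed as CPM, reads scaled to the group's distal total. The groups were classes 2 and 11 (M, mature luminal-like), classes 3 and 7 (L, luminal progenitor-like), classes 1 and 8 (B, basal-like), and the mainly fetal classes 5 and 9 (FL) and 4 and 12 (FB). A region was kept when its M level was at least 10 CPM and at least 3 times its level in each other group, with 0.5 CPM added to both sides of every ratio. These values chose the members, so the levels in the 5 groups are a description and carry no test. By the same steps 2457 distal regions were specific to B and 1084 to L.

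The nuclei came from the mammary gland of wild-type CD1 mice, an outbred stock. Epithelial cells had been sorted as EpCAM+ and Lin-, from fetuses at embryonic day 18 and from adults at 8 weeks, and each stage was done in 2 biological replicates. No treatment or engineered allele was named in the labels. How many animals made up a replicate, and the hormonal state of the adults, were not given in the sources used here. Each stage thus had 2 libraries, and the spread given below is between these libraries only.

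Adult mammary ducts have an outer layer of contractile basal cells and an inner luminal layer. Luminal cells include progenitors with milk and alveolar potential and mature, hormone-sensing cells that carry the oestrogen, progesterone and prolactin receptors and signal to their neighbours through paracrine factors such as amphiregulin. FOXA1 is a pioneer factor that can bind nucleosomal DNA and is needed for oestrogen receptor binding at many sites, and AP-1 (dimers of the FOS and JUN families) binds a large share of open distal elements in many cell types. A distal region here is a candidate regulatory element away from a gene start, and its openness does not show which gene it acts on.

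Reads in the 4 libraries ranged from 6028168 to 19304830 in 882 to 2804 nuclei, and 40.1% to 42.5% of them lay in distal regions. No barcode was shared between libraries. The M group held 2086 nuclei with 5867946 distal reads, of which 10 nuclei were fetal, so 1 read there was worth 0.170 CPM. Markers were read as the reads over each gene and 2000 bases on either side, and these marker CPM are scaled to all reads of the nuclei instead of the distal reads. M was the highest of the 5 groups for 9 of 11 mature luminal markers, and for 0 of 8 progenitor and 0 of 10 basal markers. The 11 mature luminal markers summed to 1259 CPM in M against 477 to 563 CPM in the other 4 groups. The exceptions were Tbx3, at 161 CPM in M and 170.5 CPM in FL, and Tnfsf11 (RANKL), at 20.5 CPM in M and 25.4 CPM in FB. Markers of cells that the sort should remove stayed low in M, with 24.5 CPM over 4 immune genes and 86.2 CPM over 6 stromal genes, both the lowest of the 5 groups. Over 3 endothelial genes M had 69.0 CPM, also the lowest, although Kdr was highest there. Over 2 adipocyte genes M was not the lowest, at 19.6 CPM. There B had 17.0, L 18.6, FL 21.8 and FB 23.5 CPM.

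Sequence was available where a RefSeq promoter window (build GRCm38.p6, the assembly of mm10; 250 bases before to 50 after an annotated start) lay whole inside a member. Taking 1 window per region, 63 members held such a window, or 0.934% of them, so these are the members that overlap an annotated start, mostly of non-coding genes, and they are not a sample of all members. FOXA letters (TGTTTAC or TATTTAC, either strand) occurred in 12 of the 63 windows, 19.0%, against 5.85% of 2426 windows in other distal regions and 6.54% of all 32851 RefSeq windows. AP-1 letters (TGAGTCA, either strand) occurred in 20 of the 63, 31.7%, against 10.4% and 5.20%. FOXA or AP-1 letters occurred in 29 windows (46.0%, against 15.7% of windows in other distal regions), and 3 windows (4.76%, against 0.536%) held both. Median GC content was 48.3% in the member windows and 53.3% in the other distal windows, and its part in these shares was not tested. The other distal windows lay in regions of any M level, and the part of openness was not tested either. Windows in the regions specific to B or L were not counted apart, so the shares are not shown to be particular to mature luminal regions.

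The windows shown are first the 3 that hold both letters (starts of Toporsl, Gm31555 and Gm46038). Of the member windows considered for print that hold FOXA or AP-1 letters, Gm40008 (AP-1) lies in the member with the highest M level. Gm52179 (FOXA) lies in the more selective of the 2 strongest of these members with FOXA letters. Also shown is the FOXA window beside the Foxa1 gene (Gm20016). The last is the window in the 1 member called between classes 2 and 11 by the test given below (2310015A16Rik). Sequences are from RefSeq, 5′ to 3′ on the strand of the start, and capitals mark FOXA and AP-1 letters.
Toporsl: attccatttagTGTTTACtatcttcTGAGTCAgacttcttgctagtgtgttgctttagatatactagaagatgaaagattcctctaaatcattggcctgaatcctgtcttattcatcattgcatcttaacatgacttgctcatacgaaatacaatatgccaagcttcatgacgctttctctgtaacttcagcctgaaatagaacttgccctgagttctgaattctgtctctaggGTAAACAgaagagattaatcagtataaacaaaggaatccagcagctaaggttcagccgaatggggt
Gm31555: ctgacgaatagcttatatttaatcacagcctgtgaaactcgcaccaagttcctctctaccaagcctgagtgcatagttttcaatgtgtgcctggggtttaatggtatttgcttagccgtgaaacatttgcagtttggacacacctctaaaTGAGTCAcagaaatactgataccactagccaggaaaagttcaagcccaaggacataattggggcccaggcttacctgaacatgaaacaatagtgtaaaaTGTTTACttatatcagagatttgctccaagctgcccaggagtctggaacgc
Gm46038: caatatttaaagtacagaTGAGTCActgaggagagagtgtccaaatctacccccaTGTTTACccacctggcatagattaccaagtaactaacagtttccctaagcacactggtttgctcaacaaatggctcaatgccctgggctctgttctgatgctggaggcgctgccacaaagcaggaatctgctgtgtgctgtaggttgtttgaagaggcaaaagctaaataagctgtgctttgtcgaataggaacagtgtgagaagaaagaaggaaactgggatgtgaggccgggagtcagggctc
Gm40008: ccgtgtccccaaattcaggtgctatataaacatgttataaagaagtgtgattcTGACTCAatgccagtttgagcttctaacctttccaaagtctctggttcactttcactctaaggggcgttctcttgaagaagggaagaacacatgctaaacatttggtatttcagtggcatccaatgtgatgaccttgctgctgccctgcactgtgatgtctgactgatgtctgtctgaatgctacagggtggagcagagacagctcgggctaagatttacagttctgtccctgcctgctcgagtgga
Gm52179: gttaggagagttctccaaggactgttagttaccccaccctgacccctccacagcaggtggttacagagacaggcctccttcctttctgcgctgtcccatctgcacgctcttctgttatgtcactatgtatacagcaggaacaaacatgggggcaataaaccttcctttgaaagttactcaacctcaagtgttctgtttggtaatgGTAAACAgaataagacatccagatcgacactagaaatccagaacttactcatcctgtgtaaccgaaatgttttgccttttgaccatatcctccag
Gm20016: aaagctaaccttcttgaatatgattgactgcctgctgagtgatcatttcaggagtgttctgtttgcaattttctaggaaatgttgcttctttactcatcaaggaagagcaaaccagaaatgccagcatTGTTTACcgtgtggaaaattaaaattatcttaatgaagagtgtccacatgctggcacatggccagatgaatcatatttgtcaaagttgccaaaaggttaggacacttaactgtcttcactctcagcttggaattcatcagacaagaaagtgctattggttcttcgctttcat
2310015A16Rik: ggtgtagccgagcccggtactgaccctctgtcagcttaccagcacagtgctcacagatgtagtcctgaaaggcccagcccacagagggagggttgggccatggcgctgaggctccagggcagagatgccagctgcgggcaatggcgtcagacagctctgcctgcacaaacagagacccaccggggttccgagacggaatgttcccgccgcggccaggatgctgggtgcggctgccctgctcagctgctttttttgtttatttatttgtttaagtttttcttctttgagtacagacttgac

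In the Toporsl window (chr4:52606956-52607255, plus strand), FOXA letters stood at bases 12 to 18 and 235 to 241 and AP-1 letters at bases 26 to 32. Its member read 21.5 and 26.3 CPM in M of adult replicates 1 and 2, against 3.45 CPM in B, the highest other group. In the Gm31555 window (chr5:17571635-17571934, minus strand) the AP-1 letters (bases 151 to 157) and FOXA letters (bases 250 to 256) lay farther apart. This member, 3105 bases from Sema3c, a secreted guidance factor, read 19.5 and 18.3 CPM in M and 6 and 4 reads in fetal class 13 (57.3 and 18.7 CPM). In the Gm46038 window (chr8:34456668-34456967, plus strand) AP-1 letters stood at bases 19 to 25 and FOXA letters at bases 56 to 62, and the member read 33.3 and 35.8 CPM in M against at most 3.94 CPM in B, L, FL and FB. Fetal class 13 had 2 and 10 reads there (19.1 and 46.7 CPM), and class 14 had 27.03 and 30.8 CPM.

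The Gm40008 window (chr2:172297648-172297947, minus strand) has AP-1 letters at bases 54 to 60. Its member, 46389 bases from Mc3r, a melanocortin receptor gene, had 83.2 and 63.3 CPM in M and no other group above 1.97 CPM. The Gm52179 window (chr15:81260316-81260615, plus strand) has FOXA letters at bases 206 to 212, and its member, 21403 bases from Mchr1, a melanin-concentrating hormone receptor gene, read 44.2 and 47.0 CPM in M, with no read in L or FB, 3 in B and 1 in FL. In the Gm20016 window (chr12:57511837-57512136, plus strand), FOXA letters stood at bases 129 to 135. That member lies 28919 bases from the Foxa1 gene and read 20.7 and 32.8 CPM in M, with no read in L or FL.

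Other letters were less frequent or similar in the 2 sets of windows. The oestrogen receptor element (an inverted repeat of GGTCA with 3 bases between) occurred in 1 of the 63 member windows and in 0.124% of the other distal windows. GATA letters (AGATAA) occurred in 12.7% and 9.69%, RUNX letters (TGTGGTT) in 9.52% and 5.94%, ETS letters (CAGGAAG) in 12.7% and 14.3%, and TEAD letters (ACATTCC) in 4.76% and 5.19%. With 63 windows, 1 window is 1.59%, so these latter shares differ by only a few windows. A match says nothing about whether the factor binds.

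Most members were moderately open in M and low, though rarely without any read, in the other 4 groups. Their median level there was 0.863 CPM in B, 1.48 CPM in L, 1.27 CPM in FL and 0.712 CPM in FB. Their M level ranged from 10.1 to 445 CPM with a median of 18.1 CPM, and 3813 (56.6%) lay under 20 CPM, while 22 reached 100 CPM. The ratio to the highest other group had a median of 6.17 and reached 10 in 1680 members (24.9%). In 100 members no read at all was found in the other 4 groups. The highest other group was L in 2397 members, FL in 1692, B in 1357 and FB in 1296, with the 100 members that had no read in any of them counted under B. Of the 26916 distal regions with at least 10 CPM in M, 25.0% were members.

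The thresholds cut through a continuous range. The weakest members had 59 reads in M (10.1 CPM), as in the region chr1:10602911-10603910 at Cpa6. Regions with 58 reads (9.88 CPM), such as chr1:4661417-4662416 at Mrpl15, fell outside although no other group had a read there. On the ratio, chr14:41016994-41017993 at Prxl2a was kept at 3.00 and chr8:84973801-84974800 at Prdx2 was left out at 2.999. Between 8 and 10 CPM, 1514 regions met the ratio, and between ratios of 2.5 and 3, 1047 regions met the CPM minimum.

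The M levels of the 6742 members in the 2 adult libraries correlated at Pearson r = 0.808 and Spearman rho = 0.772 across regions on the log2 scale, and 96.2% lay within 2-fold. These regions share the 2 libraries and are no replicates, and the choice used the sum of both. The choice was therefore repeated on replicate 1 of both stages alone, which gave 6187 regions. In replicate 2, which had not chosen them, M was the highest group in 98.9% of them (27.1% of all distal regions), the ratio was at least 3 in 79.4% (8.89%), and 71.2% passed the whole rule again (4.93%). The 7166 regions chosen on replicate 2 gave 97.9% (24.9%), 71.7% (8.04%) and 61.5% (4.25%) in replicate 1. M thus stayed the highest group in the unused library for nearly all regions, while part of them fell below a threshold there. The authors had made the classes from these same nuclei, those of the unused library among them, so this is no independent check. The shares in brackets cover distal regions of any level.

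The member with the highest level was chr11:3160846-3161845, inside Sfi1, a centrosome protein gene, at 359 and 510 CPM in M of replicates 1 and 2. It stood apart: 39.2% of M nuclei had a read there, against 18.1% for the next member, and up to 17 reads came from 1 nucleus. Class 13 had no read there in either fetal library, where 3 reads would be 28.7 and 14.02 CPM, while class 10 had 303 and 262 CPM. The next were chr7:47108319-47109318 in Ptpn5, a tyrosine phosphatase gene (157 and 146 CPM), and chr5:123820105-123821104 in Kntc1, a kinetochore gene (171 and 119.5 CPM). The member in Ms4a15 had 131 and 116 CPM. The member in Padi2, which encodes a peptidylarginine deiminase, was the most selective of the 10 strongest, at 133 and 109.7 CPM in M and at most 3.20 CPM in another group. The others among the 10 had 109 to 118 CPM over both libraries. They lay in Prkar2b, or had Vmp1, Tshz1, Trps1 or Dusp2 as nearest gene. Those genes were 1477, 116293, 180658 and 2756 bases away. Trps1 encodes a GATA-type repressor and Prkar2b a regulatory subunit of protein kinase A. In all 10, both adult libraries exceeded 100 CPM in M.

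The largest ratio belonged to chr3:19674196-19675195 inside Trim55, with 172 and 194 reads in M (69.8 and 57.4 CPM) and none in the other 4 groups. Had those groups held 3 reads together, the M level would have been 308.5 times theirs. This only describes values that the rule used. The members with the next ratios were near Plpp4, Stc2 (stanniocalcin, a secreted hormone) and Drd1 (a dopamine receptor), with 53.1 and 47.3, 43.0 and 47.3, and 32.4 and 35.2 CPM in M. None had a read in the other 4 groups. Near here names the nearest protein-coding gene at any distance, 14651 bases for Plpp4 and 133126 bases for Stc2. Of the remaining 6, those near Bmp2 (a secreted growth factor), Pabpc6 and in Rgs7 and Nckap5 also had none, the member near Frmpd2 had 2 reads in FL and that in Plrg1 had 2 in B. Classes outside the rule did open some of them: the Trim55 member read 23.98 and 22.1 CPM in class 10 and 72.1 and 70.5 CPM in class 14, and the Stc2 member 38.2 and 42.1 CPM in fetal class 13.

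Classes 6, 10, 13 and 14 entered neither side of the rule, so their reads in the members are a measure that the rule did not use. The authors made all classes from the same nuclei, so these values are given with no test. Members took 8.81% and 9.45% of the distal reads of class 10 in adult replicates 1 and 2 (9.13% ± 0.449, SD, n = 2), and 8.77% and 9.01% of those of class 14 (8.89% ± 0.170, SD, n = 2). Fetal class 13, with 40 and 66 nuclei, gave 5.96% and 6.33% (6.15% ± 0.267, SD, n = 2). By description, class 2 had 15.9% ± 0.389 and class 11 had 14.2% ± 0.382 (SD, n = 2). In the fetal classes that the rule kept low, the share was 1.49% ± 0.01 in class 9, 1.25% ± 0.0408 in class 4, 0.876% ± 0.00513 in class 5 and 0.801% ± 0.0259 in class 12 (SD, n = 2). Outside the rule, both libraries of class 13 lay above both of the fetal nuclei of class 6 (2.30% ± 0.0335, SD, n = 2). They lay below both of classes 10 and 14. They also lay above both libraries of those 4 fetal classes, but the rule had made these low. Members are 4.64% of the distal regions by number. The mean level over all distal regions was 6.88 CPM. Over members it was 9.21 CPM in class 13, 13.5 CPM in class 10 and 13.2 CPM in class 14. In class 6 it was 5.01 CPM in adult and 3.40 CPM in fetal nuclei. In class 13, 32.4% of members and 21.7% of all distal regions reached 10 CPM. The widest exact binomial 95% interval among the 6 shares of classes 10, 13 and 14 ran from 8.61% to 8.94%, for class 14 in adult replicate 1. These intervals cover counting error only, since a fragment can count once for each of its ends and reads of 1 nucleus are not independent.

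**Figure D1:**
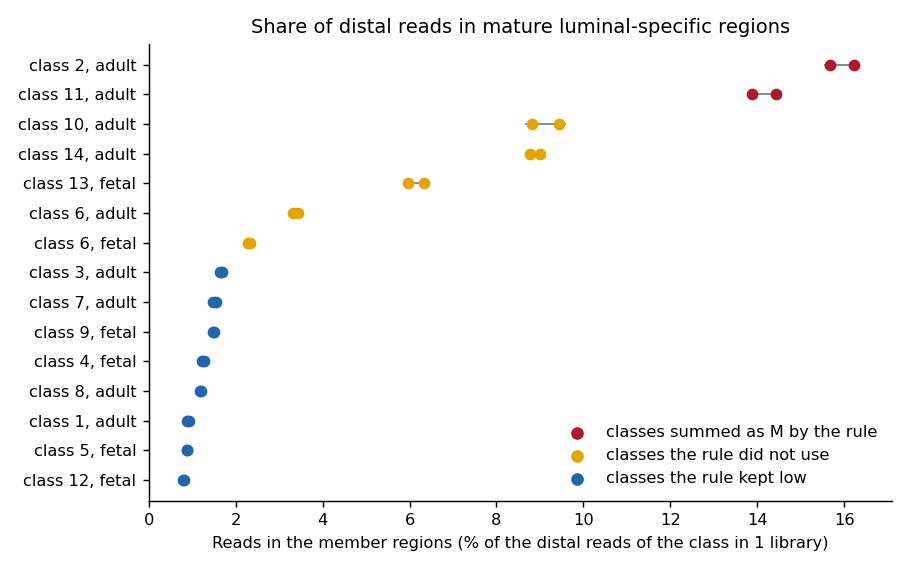
Share of the distal reads of each deposited class that fell in the member regions, in percent, with 1 point per library and a line of 1 SD on each side of the mean. Class 13 lies at 5.96% and 6.33%, above the fetal nuclei of class 6, and the rule kept the other fetal classes low. Classes 10 and 14 lie between class 13 and classes 2 and 11.

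The same order was seen with members chosen without the library being read. Regions chosen on replicate 1 took 13.8% of the M reads of replicate 2, 8.62% of those of class 10, 8.18% of class 14, 5.85% of class 13 and 1.41% of class 9. Regions chosen on replicate 2 took 14.9%, 8.87%, 8.78%, 6.04% and 1.56% in replicate 1. The authors' classes had still been made with the nuclei being read.

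The openness of classes 10 and 14 was spread over weak and strong members alike. When the members were split by M level into 4 sets of 1685 or 1686, class 10 had 57.7% to 59.5% of the M level in each set and class 14 had 56.7% to 58.2%. In class 13 the fraction fell from 46.0% in the weakest set to 36.9% in the strongest. An even fraction was not particular to classes 10 and 14, since class 9, which the rule kept low, had 9.38% to 9.95%. Reads around the members, averaged over all of them, put M, classes 10 and 14 and class 13 in the same order as the shares: within 250 bases of the member centre the mean level was 16.1 times that beyond 4000 bases in M, 10.4 times in class 10, 10.4 times in class 14, 6.19 times in class 13, and 1.23 to 1.86 times in B, L, FL and FB.

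**Figure D2:**
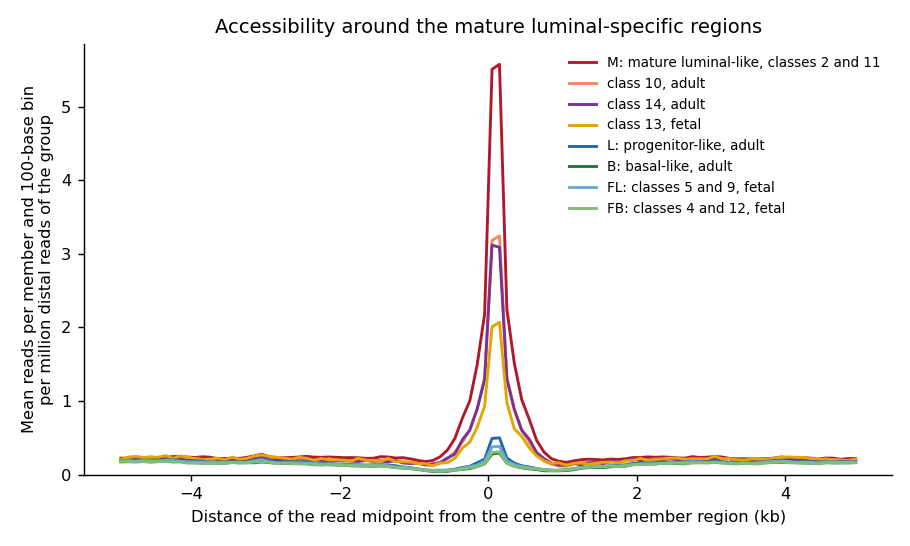
Mean level per member and 100-base bin, in CPM, against the distance of the read midpoint from the member centre in kb, with 1 line per group or class over its libraries. M is 16.1 times its flanking level within 250 bases of the centre, and classes 10, 14 and 13 stand between M and the other 4 groups.

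Markers of other cell types moved with these classes. Class 14 had 578 CPM over the 10 basal markers, against 226 CPM in M and 1150 CPM in B, and 2.32% ± 0.177 (SD, n = 2) of its distal reads lay in the basal-specific regions, against 0.301% in class 2. Class 10 had 382 CPM over the 8 progenitor markers, against 186 CPM in M and 592 CPM in L, and 1.34% ± 0.0790 (SD, n = 2) of its reads lay in the progenitor-specific regions, against 0.281% in class 2. Class 13 had 344 CPM over the basal and 287 CPM over the progenitor markers. The basal- and progenitor-specific regions held 0.491% and 0.321% of its distal reads. Those sets were chosen to be low in FL and FB. Fetal classes 4 and 12 had 1.10% and 0.688% of their reads in the basal-specific regions, and classes 9 and 5 had 0.431% and 0.319% in the progenitor-specific ones. Over the 11 mature luminal markers classes 10, 14 and 13 had 881, 940 and 721 CPM. By gene, Esr1, Prlr, Foxa1, Cited1, Areg and Ly6a were higher in class 13 than in FL. Pgr, Tbx3, Wnt4, Tnfsf11 and Prom1 were lower. The widest gap was at Foxa1, 170 CPM against 53.4 CPM. Over the 6 stromal markers classes 10, 14 and 13 had 91.4, 137 and 137 CPM, against 86.2 CPM in M. Over 3 endothelial genes they had 92.1, 65.8 and 106 CPM, against 69.0 CPM in M. Over 3 luminal keratin genes they had 261, 143 and 143 CPM, against 247 CPM in M. Median reads per nucleus were 9143 in class 10, 8222 in class 14 and 6988 in class 13, against 4899 in class 2 and 6461 in class 11. The part of mixed barcodes and of read depth in the shares of classes 10 and 14 was not tested. Sets of 2 nuclei under 1 barcode were not sought, because the deposited nuclei were taken as they stood.

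The authors had placed 10 fetal nuclei in the mature luminal classes 2 and 11. Together they gave 10.8% of their distal reads to the members (2350 of 21854 reads, exact binomial 95% interval 10.3% to 11.2%), with single nuclei from 8.86% to 11.8%. The interval covers counting error only and is narrower than the spread between these nuclei. All 10 lay below 11.97%, the 5th percentile of the 2076 adult nuclei of these classes, whose median was 15.6%. None of the 2577 fetal nuclei of any class reached that value. Of these, 1575 were in FL and 809 in FB, where the rule kept the members low. The rule used the sum of classes 2 and 11, in which the adult nuclei dominate. The 5th percentile thus comes from nuclei whose reads chose the members, and the count is a description. On regions chosen without the library being read, the fetal nuclei of these classes gave 9.65% and 9.61%, against 13.8% and 14.9% for the adult ones.

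The deposited chromVAR scores, which measure how far regions with a factor's motif are open in a nucleus relative to the average nucleus, were compared over the same classes. They come from the same reads that chose the members and are given as description. The mean Foxa1 score was 3.82 and 4.36 in M of the 2 adult libraries, against -1.06 ± 0.110 in L, -2.22 ± 0.115 in B, -1.77 ± 0.311 in FL and -2.64 ± 0.127 in FB (SD, n = 2). In class 13 it was 3.19 and 3.37, below M but far above FL and FB. In class 10 it was 2.28 ± 0.565 and in class 14 1.59 ± 0.108 (SD, n = 2), both below class 13 although their shares of reads in members were larger. The Fos score differed in its pattern: 2.45 and 3.13 in M, 1.58 ± 0.205 in class 10 and 2.08 ± 0.573 in class 14 (SD, n = 2), but -1.46 and -1.16 in class 13. FL and FB also had negative Fos scores, -2.70 ± 0.164 and -1.79 ± 0.358 (SD, n = 2). The other AP-1 columns (Fosb, Junb, Batf and Jun), Bach1, and Smarcc1, named for a chromatin remodeller subunit, likewise had positive means in M, class 10 and class 14 and negative means in class 13. The Esr1 score was 0.781 ± 0.146 in M and -0.495 ± 0.0775 in class 13, and also below 0 in FL (-0.479 ± 0.108) and FB (-1.21 ± 0.0741) (SD, n = 2). Class 13 thus combined a high Foxa1 score and part of the members' openness with AP-1 and Esr1 scores below 0, as in FL and FB. Its 106 fetal nuclei stood beside only 8 adult ones, so class and stage cannot be told apart.

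**Figure D3:**
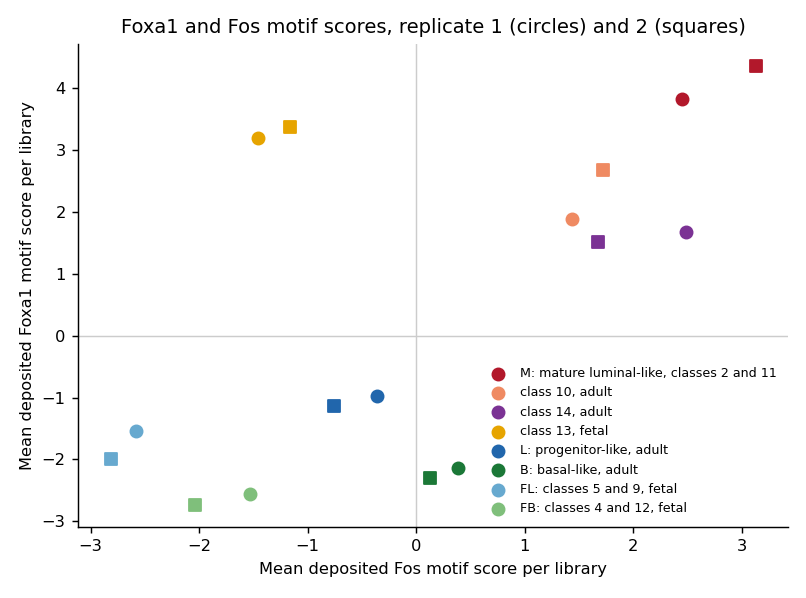
Mean deposited Foxa1 score (vertical) against mean deposited Fos score (horizontal), with 1 point per library for each group or class. Class 13 lies at a Foxa1 score of 3.19 and 3.37 with Fos scores of -1.46 and -1.16, apart from M, where both scores are positive.

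Individual members differed in class 13. The 10 members with the most class 13 reads were led by chr11:86581882-86582881 near Vmp1, an autophagy gene, at 7 and 51 reads (66.9 and 238 CPM). It was followed by members in Acsbg1 (16 and 26 reads, 153 and 121 CPM), 104725 bases from Rplp1 (10 and 26 reads, 95.6 and 121 CPM) and in Pam, which amidates peptide hormones (10 and 23 reads, 95.6 and 107 CPM). Their M levels were 118, 104, 51.3 and 77.2 CPM. All 10 had a higher level in class 13, over both fetal libraries together, than in M. They were picked by their class 13 reads, and the rule did not compare M with class 13. The Rplp1 member had at most 1.46 CPM in the other 4 groups, so among the groups of the rule it was near 0 outside M. The Vmp1 member was also open in class 6 (113 and 67.2 CPM in the adult and 113 and 173 CPM in the fetal libraries). It was thus not particular to luminal nuclei.

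The rule had summed 2 classes, and the difference between them was the comparison it did not use. The authors drew both classes from these same nuclei and reads, so the p-values below can be too small and serve only to order the regions. Class 2 was compared with class 11 in the 2 adult libraries with edgeR's quasi-likelihood test over 39601 distal regions, each averaging 10 reads or more over the 4 sums. Of these, 12 (0.0303%) passed an adjusted p of 0.05, all higher in class 2, and 3467 had an unadjusted p under 0.05. All 6742 members were tested, which the CPM minimum brings about, and 1 was called: chr17:31911920-31912919. It had 58.0 and 65.2 CPM in class 2 and 20.0 and 12.02 CPM in class 11, so the 2 classes did not overlap (log2 difference 2.00, SE 0.356, edgeR adjusted p = 0.0380). The start of 2310015A16Rik (window chr17:31912395-31912694, minus strand, printed above) lies in it, the nearest protein-coding gene is Hsf2bp at 32350 bases, and its window holds TEAD letters at bases 195 to 201 and neither FOXA nor AP-1 letters. Counting reads by their midpoint gave this member an adjusted p of 0.0509 and left 0 members called, with 3210 of 37082 regions at an unadjusted p under 0.05. With the library as a block 4 members were called (0.0593%, against 17 or 0.0429% of all tested regions), all higher in class 2, and edgeR's adjusted p for this member was 0.0239. The other 3 included members in Sumf1 (chr6:108158506-108159505, 86.7 and 68.4 CPM in class 2, 21.8 and 25.7 CPM in class 11) and in Rhbdl2 (chr4:123813744-123814743, 81.4 and 94.7 against 21.8 and 35.3 CPM).

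For the remaining members the 2 classes were not shown to differ in this fit, and were not shown to be alike. Other fits called other numbers of members, all higher in class 2. With no filter on low reads 84 were called (1.25%, against 0.274% of all tested regions), where regions averaged 50 reads or more 3 (0.276% against 0.420%), and in DESeq2, among the regions it gave an adjusted p, 4 (0.590% against 1.02%). The log2 difference, class 2 minus class 11, had a median of 0.10 over the members and 0.01 over all tested regions, and the central 90% of members spanned -0.89 to 1.10. Scaled by total reads the medians were 0.01 over members and -0.08 over all regions. They were 0.06 and -0.04 in replicate 1 alone, and 0.02 and -0.06 in replicate 2 alone. With no filter they were 0.39 and 0.09, and with a mean of at least 50 reads, which 1086 members met, -0.01 and -0.00447. It exceeded 1 in size in 10.2% of members and 12.6% of all tested regions. Class 2 gave most of the M reads that chose the members, so the sign of the median is not independent of the choice. 

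Members lay in and around genes of the hormone-sensing programme more often than distal regions at large. Within 100 kb of 17 genes listed for hormone sensing and mature luminal identity, 48 of 476 distal regions were members (10.1%), against 4.64% of all 145453. Near 13 progenitor and milk genes the share was 2.31% (7 of 303), near 16 basal genes 2.90% (14 of 482), near 9 AP-1 genes 2.58% (8 of 310) and near 23 nuclear receptor and cofactor genes 3.47% (29 of 836). The basal-specific regions reached their highest share, 7.26%, near the basal genes, and the progenitor-specific ones 4.62% near the progenitor genes. The lists hold genes known for these cell types, so this is a description of where the members lie. Of the AP-1 genes, Jun had 5 members among 32 regions and Fosb 2 among 41. Of the nuclear receptor genes, Ncoa2, a coactivator, had 6 of 50 and Esrrg 4 of 55.

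**Figure D4:**
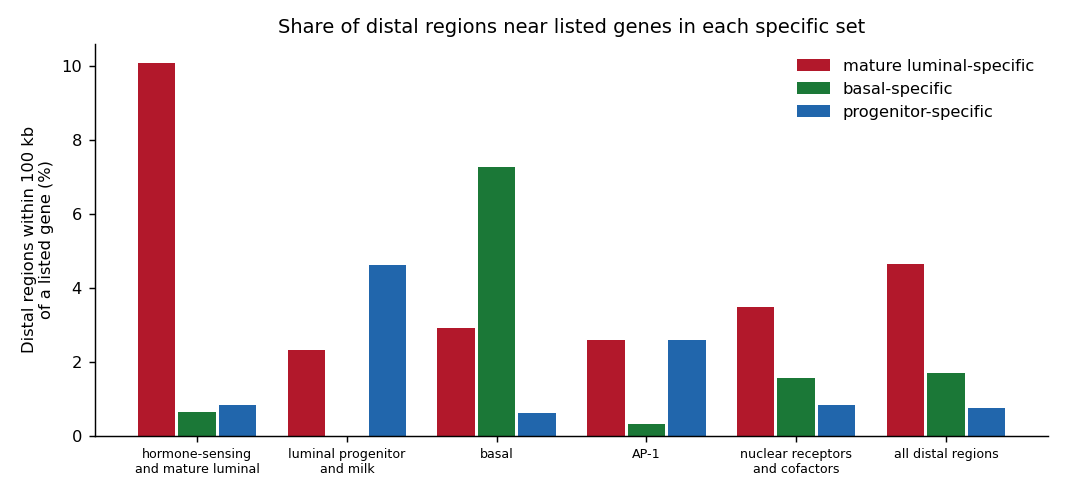
Percentage of the distal regions within 100 kb of the genes of each list that were mature luminal-, basal- or progenitor-specific, with all distal regions at the right. Mature luminal-specific regions make up 10.1% of the regions near the hormone-sensing genes and 4.64% of all.

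Among the hormone-sensing genes, 14 of 17 had at least 1 member. So did 6 of 13 progenitor and milk genes, 8 of 16 basal, 3 of 9 AP-1 and 13 of 23 nuclear receptor and cofactor genes. Such counts depend also on how many distal regions lie near a gene. Of the hormone-sensing genes Foxa1 had the most, 12 of the 28 distal regions within 100 kb (chr12:57540628-57548029). Together its members read 355 and 349 CPM in M of the 2 adult libraries, 53.1 and 55.6 CPM in L, 18.7 and 26.0 CPM in B, 59.3 and 52.2 CPM in FL and 55.7 and 41.2 CPM in FB. In class 13 they read 239 and 201 CPM (25 and 43 reads), and in class 10 141 and 269 CPM. The class 13 level was 62.5% of that of M, and the highest library of FL or FB was at 59.3 CPM. The strongest single member there, chr12:57575528-57576527 in Ttc6, the gene beside Foxa1, had 68.1 and 52.9 CPM in M but 2 reads and no read in class 13. The member with the most class 13 reads, chr12:57543211-57544210 inside Foxa1, had 52.7 and 40.2 CPM in M and 3 and 11 reads in class 13.

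The receptor genes had fewer members. Esr1, the oestrogen receptor, had 3 of 36 regions. The strongest, chr10:4624651-4625650 inside the gene, read 53.5 and 52.1 CPM in M, at most 2.96 CPM in another group, and 0 and 7 reads in class 13. Prlr, the prolactin receptor, had 3 of 31, the strongest being chr15:10200592-10201591 inside the gene at 48.7 and 43.2 CPM in M, 9.02 and 3.90 CPM in L and no read in B or FL. Pgr, the progesterone receptor, had 3 of 26 that were weaker, the strongest (chr9:8997475-8998474, in the neighbouring Arhgap42) at 13.4 and 19.2 CPM. Summed over their members, the class 13 level was 36.8% of M for Esr1, 25.0% for Prlr and 10.5% for Pgr, from 2 and 12, 2 and 4, and 0 and 2 reads, against 62.5% for Foxa1.

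The signals, surface markers and other regulators of the list differed in their members and in their class 13 levels. Areg, amphiregulin, had 6 of 23 regions; the strongest lay 1528 bases from the gene (chr5:91149461-91150460) and read 41.4 and 26.9 CPM in M, no read in B and at most 3.20 CPM in L, FL and FB, with 0 and 6 reads in class 13. Wnt4, a signal induced by progesterone, had 2 members with no class 13 read in either library. Tnfsf11, the RANKL gene, had none among 17 regions. Prom1, a surface marker of hormone-sensing luminal cells, had 4 members at 138 and 148 CPM in M and 162 and 70.1 CPM in class 13 (17 and 15 reads), and Spdef, an ETS-family factor, had 4 at 104 and 76.6 CPM in M and 76.4 and 74.8 CPM in class 13. At Prom1 the class 13 libraries lay on both sides of those of M and were far apart, and at Spdef both lay below both M libraries, though close to the lower one. Greb1, an oestrogen receptor target, had 3 members at 105 and 89.9 CPM in M and only 19.1 and 18.7 CPM in class 13. Gata3, Cited1 and Calca had 2 members each, and Tbx3 and Myb 1 each. The Myb member (chr10:21089158-21090157) was the only listed locus with more in class 13 than in M, at 124 and 18.7 CPM (13 and 4 reads) against 21.1 and 13.9 CPM. Those 2 libraries differ widely, so the order rests on few reads. Ly6a had none among 28 regions.

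**Figure D5:**
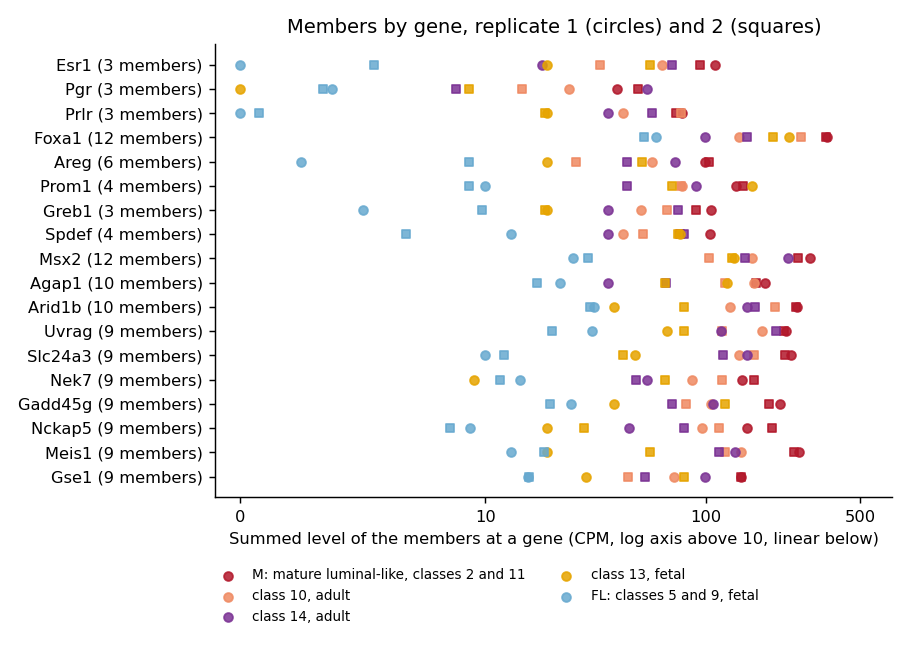
Summed CPM of the members at each gene, with circles for replicate 1 and squares for replicate 2 of M, classes 10, 14 and 13, and FL, on an axis that is logarithmic above 10 CPM and linear below (upper 8 genes: hormone-sensing list, at least 3 members; lower 10: genes nearest to the most members). At Prom1 the class 13 points (162 and 70.1 CPM) lie on both sides of those of M and at Spdef they lie just below the lower M point, while at Pgr, Greb1 and Meis1 they lie well below. Adgrl2 and Myc tied at 9 members with the last of the lower 10 genes and are not shown.

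By the nearest protein-coding gene, the members were spread over 4212 genes, and 129 genes were nearest to at least 5. Msx2, a homeobox factor, was nearest to the most: 12 of its 39 distal regions were members, from 29717 to 258058 bases from the gene. Together they read 297 and 261 CPM in M, 134 and 131 CPM in class 13, and at most 57.1 CPM in any library of L, B, FL or FB, and the strongest (chr13:53627131-53628130) had 60.8 and 57.4 CPM in M and no read in B. Agap1 (10 of 70) and Arid1b (10 of 114), a subunit of the BAF chromatin remodeller, came next. Uvrag, Slc24a3, Nek7, Gadd45g, Nckap5, Meis1, Gse1, Adgrl2 and Myc had 9 each. Meis1, a homeobox factor, had 264 and 252 CPM in M over its 9 members and only 19.1 and 56.1 CPM in class 13. Gadd45g, a growth-arrest and stress gene, had 9 of 67, and Uvrag, which acts in autophagy, 9 of 46. Genes differ in how many distal regions they are nearest to, so the share of those regions is given as well: it was 30.8% for Msx2 and 19.6% for Uvrag, but 8.77% for Arid1b and 6.52% for Myc. Fam160a1 (6 of 18, 33.3%) and Ttc6 (6 of 19, 31.6%) had fewer members and a larger share than Msx2.

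In position the members resembled distal regions in general, except that they adjoined each other more often. Of the members 54.9% lay inside a protein-coding gene, against 53.4% of all distal regions, and those outside lay a median of 32.4 kb from the nearest one, against 29.6 kb. The next distal region along the chromosome was also a member in 9.64% of cases, while members make up 4.64% of all distal regions. The other specific sets adjoined each other too, at 7.61% for basal-specific regions (1.69% of all) and 3.69% for progenitor-specific regions (0.745% of all). The part of neighbouring members that share 1 broad open domain was not tested.

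The deposited Cicero scores, which rate how far 2 regions open together across all nuclei, linked many members to each other. They come from the nuclei that chose the members, so regions open in the same group score high together and the values are a description. At a score over 0.25, 10.0% of members were linked to a promoter region (2.21% of all distal regions) and 60.5% to another member. Of all distal regions 14.1% had a link to any distal region. Basal-specific regions were linked to a promoter region in 7.49% and to their own set in 28.3% of cases. For progenitor-specific regions these shares were 6.55% and 20.4%. Of the members' links to distal regions, 63.2% ended at a member, and at a score over 0.1 42.3% did. Basal-specific regions showed this too, with 37.6% of their links ending in their own set (1.69% of all distal regions), as did progenitor-specific regions with 31.0% (0.745%), against 4.64% of all for the members. Levels of promoter regions are given as promoter CPM, scaled to the group's reads in promoter regions, and cannot be set beside the CPM of distal regions. The linked promoter regions numbered 392, of which 141 carried a gene symbol. In 98.2% of the 392 M had the highest level of the 5 groups, against 23.7% of all promoter regions. The promoter region with the most links, to 11 members, was chr12:57546120-57547119 where Foxa1 and Ttc6 overlap, with 214 and 213 promoter CPM in M, 119 in L, 92.0 in FL, 77.2 in B and 73.1 in FB, so this promoter region was open in all 5 groups. Next to the end of Pgr, 3 promoter-list regions between chr9:8969859 and chr9:8973345 were linked to 6 to 8 members each; the one with the highest level had 81.8 and 90.6 promoter CPM in M and at most 3.30 in another group.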

How the data were processed

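Single-nucleus ATAC-seq was available for 4 libraries, 2 fetal and 2 adult. Bowtie2, MACS2, bedtools and build mm10 are named in the submitters' processing notes, with no versions. Aligner settings, read shifting and duplicate handling are not given in the sources used here. The authors deposited lists of reads 163 to 200 bases long with nucleus barcodes, distal and promoter regions, and a table with a class number and a read count per nucleus, per the file headers. The deposited read count equalled the listed reads in every nucleus, with at least 2000 reads each. The deposited chromVAR motif score per nucleus and Cicero co-accessibility score per pair of regions were taken as they stand, per the file names and headers.

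Reads overlapping a region by 1 base or more were summed per class and library with Python 3.11.15. Members were chosen as the report states, and the members, gene lists and markers were chosen with earlier results of these data known. Class 2 and class 11 sums were compared with edgeR 4.0.16 (R 4.3.3; quasi-likelihood, TMM, Benjamini-Hochberg adjusted p of 0.05), which was tested on simulated data. The SE is the log2 difference divided by the square root of F. The class 2 and class 11 sums of a replicate come from the same library, which pairs them. The deviations of same-library sums from the class means correlated at r = 0.0595 over all tested regions and 0.0658 over members. The p-values measure only the spread between these 2 adult libraries. Named regions were the 10 with the highest M level, the 10 with the largest ratio, the highest member near each hormone-sensing gene, called members, those at the thresholds, and members at the 10 genes nearest to the most; windows, class 13 members, members called under the block, 2 genes with a high share and linked promoters were chosen after their values were seen. Adgrl2 and Myc, with 9 members each, tied with the last of the 10 genes nearest to the most and were not summed. Distances are to gene spans of the RefSeq table on GRCm38.p6, and exon or intron is not given. No doublet caller was run. Sequencing dates are not given in the sources used here, so stage and batch cannot be told apart.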

Additional observations from a re-analysis of the deposited data

How the results depend on the processing

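The member count was 2929 with a minimum of 20 CPM. Under the other settings tried it stayed between 5265 and 9195, and without each library in turn between 6399 and 6997. Class 11 alone chose 7417 regions, of which 5403 were members, and class 2 alone 6805, of which 6134 were. In the comparison of class 2 with class 11, where 12 regions and 1 member were called, dropping the filter on reads gave 367 regions (0.274%) and 84 members (1.25%), a mean of at least 50 reads gave 21 (0.420%) and 3 (0.276%), and DESeq2 1.42.0 gave 36 (1.02%) and 4 (0.590%) among the 3516 regions, 678 of them members, with an adjusted p. Midpoint counting gave 11 regions and 0 members, and scaling by total reads gave 13 and 1. With the library as a replicate block, 17 regions (0.0429%) and 4 members (0.0593%) were called, and the called member kept its direction with a log2 difference of 1.99. The median log2 difference of the members, 0.10, against 0.01 over all tested regions, was 0.01 against -0.08 after scaling by total reads, 0.39 against 0.09 with no filter, 0.24 against 0.25 in DESeq2 and -0.01 against -0.00447 with a mean of at least 50 reads. It was 0.02 to 0.06 without each adult library in turn, against -0.06 and -0.04 over all tested regions. Without an adult library no test of the 2 classes could be had, since 1 sum per class remained. For Cicero scores over 0.1 and over 0.5, the share of members linked to a promoter was 33.7% and 0.564%, and to another member 82.3% and 12.6%. The share of regions near hormone-sensing genes was 12.2% within 50 kb and 9.60% within 200 kb. The class 10 share was 9.29% by midpoint counting and 8.81% to 9.45% in single libraries. The same for class 13 (6.26%, 5.96% to 6.33%) and class 14 (9.03%, 8.77% to 9.01%) was added after seeing the data. The planned motif search over whole regions and its alternatives were not run, because no genome was used here.

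In class 13 a single read is worth 9.56 or 4.67 CPM, so levels of single members there rest on few reads.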

Other observations

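Class 6, which had a high stromal marker sum (438 CPM over 6 genes, against 86.2 CPM in M), gave 3.37% ± 0.0751 of its adult and 2.30% ± 0.0335 of its fetal distal reads to the members (SD, n = 2 each). Among its 157 adult nuclei, 1 gave a share above the 5th percentile of adult mature luminal nuclei, and in basal class 8 1 of 431 adult nuclei did, at 16.8%. The 8 adult nuclei of class 13 had a median share of 8.58%, against 6.21% in its 106 fetal nuclei.

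By chromosome, members made up between 3.12% of the distal regions (X, 89 of 2851) and 5.49% (chromosome 5), apart from Y, where 0 of 14 were members.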
